A study of Mus musculus with 4 samples.

Results

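The neutrophil granule genes are a set of 10 mouse genes, namely Ngp, Ltf, Camp, Pglyrp1, Mmp8, Mpo, Elane, Retnlg, Csf3r and Il1b, taken by gene symbol from the platform annotation of the arrays. The annotation gave 1 probe set to each of 9 genes and none to Retnlg, a resistin-like secreted protein, so 9 of the 18194 genes with a value were examined. Liver mRNA of 4 genotypes was hybridized to Affymetrix mouse GeneChips, 1 to a genotype, and each held equal amounts of RNA from 3 mice of 5 weeks of age. ΔS6 mice (DS6 in the labels) carried a floxed Rps6 gene and the Alb-Cre transgene, Alb-c-Myc mice (Myc) carried an albumin-driven c-Myc transgene with Rps6 intact, and ΔS6:c-Myc mice (DS6 Myc) carried both changes. WT mice had floxed Rps6 without Cre. The colony was of mixed background, and the labels give male, non-fasted mice for every pool. The albumin promoter drives Cre and c-Myc in cells of the hepatoblast lineage and not in blood cells, and the study describes the deletion as mosaic across the liver.

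Neutrophils store their weapons in granules that are filled in sequence while the cell matures in the bone marrow. Primary granules come first, with myeloperoxidase and elastase, secondary granules follow with lactoferrin and cathelicidins, and tertiary granules carry matrix-degrading enzymes. The mRNAs of primary granule proteins are abundant in promyelocytes and decline before the cell enters the blood, whereas those of secondary granule proteins peak in myelocytes and metamyelocytes. In liver, neutrophils arrive with injury and with bacterial or biliary signals.

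The deleted gene was read by 11 probe sets, 9 of which the annotation shares with the pseudogene Rps6-ps4. These 9 were lower than in WT on both arrays of Rps6-deleted liver, with median log2 ratios of -1.64 in ΔS6:c-Myc (-2.05 to -0.54) and only -0.29 in ΔS6 (-0.42 to -0.10). The other 2, which name only Rps6, went opposite ways. One read 5.64 in ΔS6:c-Myc, 6.30 in ΔS6, 8.13 in Alb-c-Myc and 7.10 in WT, in the direction of the labels. The other read 8.25 in ΔS6:c-Myc, 7.48 in ΔS6, 5.65 in Alb-c-Myc and 6.01 in WT, against it. The positions of the probe sets against the floxed exons were not examined, so the check of the ΔS6 label is a weak one.

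One feature of the arrays bears on every ratio over WT. The WT array read 11.84 for Xist, which silences one X chromosome in female cells, against 5.88 to 6.33 on the other 3, although the Y-linked gene Eif2s3y was read at 8.67 to 9.11 on all 4 arrays. The WT array also carried mRNAs of pancreatic enzymes, and in ΔS6 all 5 measured were lower by 2-fold or more. The counts of granule genes in ΔS6 over WT are therefore given with Alb-c-Myc as the reference too. The liver label held, with Alb between 15.38 and 15.46 on every array. All levels are log2 RMA values and all ratios are differences of 2 such values. With 1 array per genotype there is no replicate error, no test and no p-value. A pair of yardsticks stands in its place. The signal floor is the 95th percentile of 78 probe sets of olfactory and vomeronasal receptor genes, at 6.95 in ΔS6:c-Myc, 6.70 in ΔS6, 6.92 in Alb-c-Myc and 6.98 in WT. The spread of a ratio between probe sets of 1 gene had an SD of 0.27 for ΔS6 over WT and is not a replicate error. It came from 3379 genes with probe sets of mean level of at least 8. Of the granule genes, 0 were among them, so the spread may differ for dim genes.

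All 9 measured genes had their highest value on the ΔS6 array, and secondary and tertiary granule genes stood farthest above the other arrays. These 5 genes were 2-fold or more above WT in ΔS6 (median log2 ratio 3.21), 3 of them by 8-fold or more. Both primary granule genes and both of the receptor and cytokine genes were within 2-fold. Over all 9 measured genes, 5 were past 2-fold higher, 0 were past 2-fold lower and the median was 2.28, against -0.05 for all genes. Of all genes, 7.24% were past 2-fold higher in this comparison, 2.54% lower, and 0.572% past 8-fold higher. With Alb-c-Myc as the reference, 6 of 9 were past 2-fold higher and 0 lower, with a median of 2.33, against 7.00% and 2.23% of all genes. Liver RNA comes from all cells of the tissue, so more neutrophils and more of an mRNA in each cannot be told apart.

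**Figure D1:**
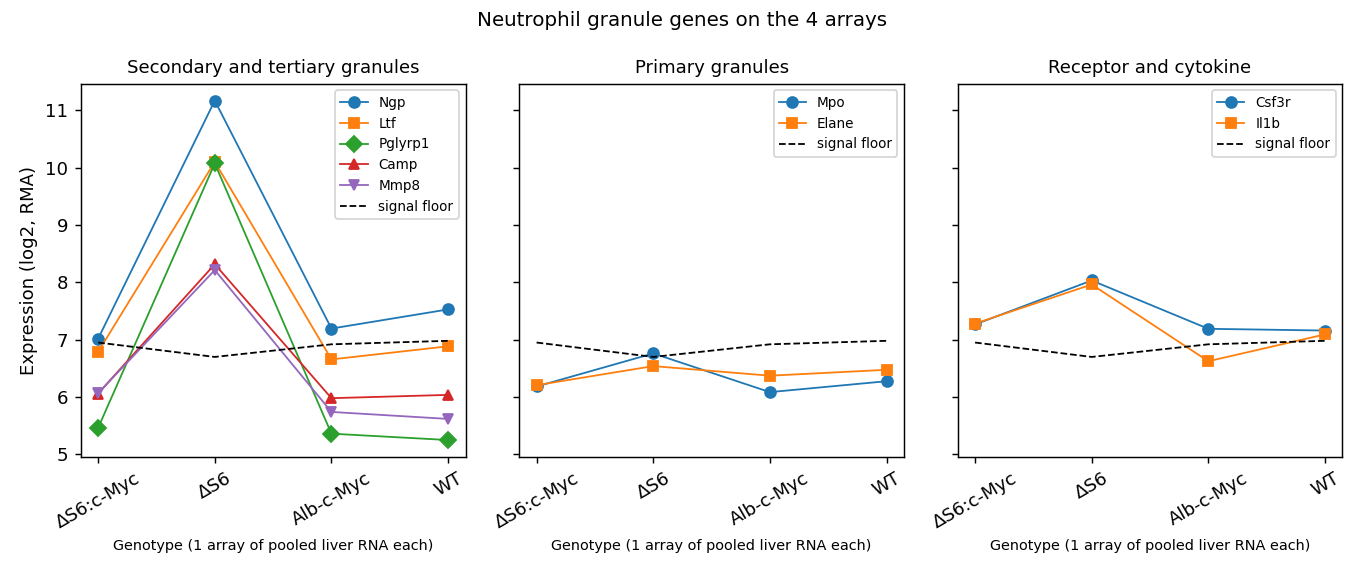
RMA expression (log2, vertical axis) of the 9 measured genes by genotype (horizontal axis, single arrays of pooled RNA), in 3 panels by the place of the gene product; points are single array values, lines join the values of 1 gene and the dashed line is the signal floor of each array. The 5 secondary and tertiary granule genes peak in ΔS6 between 8.21 and 11.17, while Mpo and Elane stay between 6.09 and 6.76 on all arrays.

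Ngp encodes neutrophilic granule protein, a relative of the cathelicidins. It was read at 7.02 in ΔS6:c-Myc, 11.17 in ΔS6, 7.19 in Alb-c-Myc and 7.53 in WT. ΔS6 stood alone, 12.5-fold above WT (log2 ratio 3.64) and 15.7-fold above Alb-c-Myc, while the other 3 arrays spanned 0.51. Among these 3, WT was the highest and ΔS6:c-Myc the lowest. Only Ngp, of the 5 secondary and tertiary granule genes, was above the signal floor on all 4 arrays. The margin was 0.07 in ΔS6:c-Myc, 0.27 in Alb-c-Myc and 0.55 in WT, so the order of these 3 is uncertain.

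Ltf encodes lactoferrin, an iron-binding protein that withholds iron from bacteria. Its values were 6.79 in ΔS6:c-Myc, 10.10 in ΔS6, 6.66 in Alb-c-Myc and 6.88 in WT. The ratio of ΔS6 over WT was 3.21 (9.28-fold), and the other 3 arrays lay within 0.23 of each other and under the floor. Camp encodes the precursor of the cathelicidin antimicrobial peptide. It was read at 6.06 in ΔS6:c-Myc, 8.32 in ΔS6, 5.98 in Alb-c-Myc and 6.04 in WT, a ratio of 2.28 (4.85-fold) for ΔS6 over WT. The 3 lower values of Camp lay within 0.08, the narrowest span among the 9 genes, so their order is not resolved.

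Pglyrp1 encodes a protein that binds bacterial peptidoglycan. It had the largest ratio of the 9 genes, from values of 5.46 in ΔS6:c-Myc, 10.07 in ΔS6, 5.36 in Alb-c-Myc and 5.25 in WT. The log2 ratio of ΔS6 over WT was 4.82 (28.2-fold), the 23rd highest of the 18194 genes. Mmp8 encodes neutrophil collagenase, which cleaves fibrillar collagen. Its values were 6.07 in ΔS6:c-Myc, 8.21 in ΔS6, 5.74 in Alb-c-Myc and 5.62 in WT, a ratio of 2.59 (6.04-fold) for ΔS6 over WT. For Ltf, Camp, Pglyrp1 and Mmp8 the values in ΔS6:c-Myc, Alb-c-Myc and WT all lie under the signal floor, which leaves the size of the fold uncertain and those 3 genotypes without an order.

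The starts of these 5 genes are shown because the genes were high together on 1 array. Each run holds 250 bases before and 50 bases after the start site in GRCm38.p6, from RefSeq, read on the strand of the gene. Capitals mark matches to 4 motifs, namely TTGCNNAA or its reverse complement TTNNGCAA for C/EBP, GAGGAA or TTCCTC for PU.1, TGTGGT or ACCACA for RUNX and, on the strand of the gene alone, TATAAA. No matches overlapped. C/EBP and PU.1 proteins are transcription factors of the granulocyte lineage, and C/EBPε is needed for secondary granules.
Ngp: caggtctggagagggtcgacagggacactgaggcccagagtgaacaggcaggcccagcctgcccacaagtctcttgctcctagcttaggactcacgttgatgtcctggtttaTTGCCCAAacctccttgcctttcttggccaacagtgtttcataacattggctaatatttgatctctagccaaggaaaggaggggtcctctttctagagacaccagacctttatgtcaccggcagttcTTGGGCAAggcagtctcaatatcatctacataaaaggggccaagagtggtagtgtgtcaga
Ltf: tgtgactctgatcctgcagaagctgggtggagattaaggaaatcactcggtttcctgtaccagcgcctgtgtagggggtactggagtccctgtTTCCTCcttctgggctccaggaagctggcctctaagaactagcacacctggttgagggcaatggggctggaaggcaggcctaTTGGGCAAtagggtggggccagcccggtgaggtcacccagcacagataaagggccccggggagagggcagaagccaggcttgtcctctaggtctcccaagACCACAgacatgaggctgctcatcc
Camp: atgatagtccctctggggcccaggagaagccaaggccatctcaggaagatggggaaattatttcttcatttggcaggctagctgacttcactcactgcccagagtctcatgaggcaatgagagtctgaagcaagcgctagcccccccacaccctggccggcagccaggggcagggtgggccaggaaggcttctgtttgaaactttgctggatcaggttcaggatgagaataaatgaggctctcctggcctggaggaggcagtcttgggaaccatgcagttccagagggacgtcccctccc
Pglyrp1: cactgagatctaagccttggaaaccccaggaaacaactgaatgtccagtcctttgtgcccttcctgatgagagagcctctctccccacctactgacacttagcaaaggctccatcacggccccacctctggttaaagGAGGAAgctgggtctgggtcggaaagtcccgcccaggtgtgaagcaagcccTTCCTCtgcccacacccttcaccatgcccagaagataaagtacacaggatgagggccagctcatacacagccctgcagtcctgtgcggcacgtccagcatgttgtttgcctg
Mmp8: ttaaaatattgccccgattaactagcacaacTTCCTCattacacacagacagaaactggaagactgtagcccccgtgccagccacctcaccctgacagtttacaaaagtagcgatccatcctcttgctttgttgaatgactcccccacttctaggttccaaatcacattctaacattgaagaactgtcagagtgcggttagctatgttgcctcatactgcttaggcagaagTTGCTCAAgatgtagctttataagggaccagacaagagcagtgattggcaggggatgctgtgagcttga
The windows lie at chr9:110419558-110419857 (plus strand) for Ngp, chr9:111019042-111019341 (plus) for Ltf, chr9:109849407-109849706 (minus) for Camp, chr7:18884440-18884739 (plus) for Pglyrp1 and chr9:7558179-7558478 (plus) for Mmp8.

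The C/EBP letters occurred in the windows of Ngp, Ltf and Mmp8, and in that of Retnlg among the other 5 genes, which makes 4 of 10, against 10.8% of all 32851 promoter windows of the same length. Ngp held a pair of matches, starting 138 and 11 bases before the start site. Ltf held 1 at 75 bases and Mmp8 1 at 19 bases before it. The PU.1 letters occurred in 6 of 10 windows, against 28.3% of all windows, in genes that were high in ΔS6 (Pglyrp1, Ltf and Mmp8) and in genes that were within 2-fold (Mpo, Elane and Csf3r). RUNX letters occurred in Ltf alone (16.8% of all windows) and TATAAA in Il1b alone (8.32%). The Camp window held no match to any of the 4. A match is a run of letters and was not shown to be a site.

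Mpo encodes myeloperoxidase, the enzyme of primary granules that makes hypochlorous acid. It was read at 6.18 in ΔS6:c-Myc, 6.76 in ΔS6, 6.09 in Alb-c-Myc and 6.28 in WT. The ratio of ΔS6 over WT was 0.48, and only the ΔS6 value lay above the floor of its array (6.70). Elane encodes neutrophil elastase. It was read at 6.21 in ΔS6:c-Myc, 6.54 in ΔS6, 6.37 in Alb-c-Myc and 6.48 in WT, under the floor on every array. Its ratio of 0.06 for ΔS6 over WT is smaller than the spread between probe sets, so no difference was detectable, and the 4 values have no resolved order.

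Prtn3, which encodes proteinase 3, another serine protease of primary granules, lies next to Elane. On chromosome 10 Prtn3 (79879667 to 79883174) ends 3.14 kb before Elane (79886312 to 79888216), with 0 annotated genes between. Prtn3 was read at 6.90 in ΔS6:c-Myc, 9.44 in ΔS6, 6.86 in Alb-c-Myc and 6.62 in WT, a log2 ratio of 2.83 for ΔS6 over WT, with ΔS6 the one array above the floor. Since Elane was under the floor on all 4 arrays, its values cannot show how the neighbours compare. Of 6 other measured genes listed with primary granules, not all for granule contents, 2 were past 2-fold above WT in ΔS6 (median 0.68). These were Prtn3 and Serpinb1a (1.38), which encodes an inhibitor of neutrophil serine proteases. The others had ratios of 0.39 for the protease Ctsg, 0.74 for Ctsc, which activates these proteases, 0.63 for Gusb and -0.09 for Ms4a3.

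Csf3r encodes the receptor of granulocyte colony-stimulating factor, which drives the production of neutrophils. It was read at 7.27 in ΔS6:c-Myc, 8.03 in ΔS6, 7.19 in Alb-c-Myc and 7.16 in WT, above the floor on every array. ΔS6 was 1.83-fold higher than WT (log2 ratio 0.87), and the other 3 values lay within 0.11. Its ligand gene Csf3 had a ratio of -0.11. Il1b encodes interleukin 1 beta, a cytokine that neutrophils and macrophages both make. Its values were 7.28 in ΔS6:c-Myc, 7.96 in ΔS6, 6.62 in Alb-c-Myc and 7.09 in WT, a ratio of 0.87 for ΔS6 over WT. The other 3 arrays spanned 0.66 for Il1b, the widest span among the 9 genes, and with Alb-c-Myc as the reference the ratio of ΔS6 was 1.34 and passed 2-fold.

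In ΔS6:c-Myc liver the granule genes read near the values of mice with intact Rps6, but most of these values lay under the signal floor. Above it were 3 of 9 genes in ΔS6:c-Myc, 2 in Alb-c-Myc and 3 in WT. Set against ΔS6, 5 of 9 genes were past 2-fold lower, 3 of them past 8-fold, and 0 were higher (median log2 ratio -2.14). Of all genes, 4.29% were past 2-fold lower in this comparison, 0.769% higher, and 0.313% past 8-fold lower. These ratios and those of ΔS6 over WT share the ΔS6 array. The ratios were -4.61 for Pglyrp1, -4.15 for Ngp, -3.31 for Ltf, -2.25 for Camp and -2.14 for Mmp8. The other 4 ranged from -0.77 for Csf3r to -0.33 for Elane.

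Set against Alb-c-Myc, a comparison made from the 2 arrays not used in ΔS6 over WT, 0 of 9 genes were 2-fold higher or lower in ΔS6:c-Myc, with a median of 0.10. The background was 1.99% higher and 1.36% lower. The ratios ran from -0.18 for Ngp to 0.66 for Il1b, and the spread between probe sets was 0.24. Over WT, 0 of 9 genes in ΔS6:c-Myc were past 2-fold (background 3.00% higher and 1.80% lower), with a median of 0.02 and a range from -0.51 for Ngp to 0.45 for Mmp8. Alb-c-Myc over WT likewise had 0 of 9 past 2-fold (background 0.418% higher and 0.335% lower), with a median of -0.10. The difference between the effect of Rps6 loss with the transgene and without it was -4.72 for Pglyrp1, -3.81 for Ngp, -3.08 for Ltf, -2.27 for Mmp8 and -2.20 for Camp. It was -0.80 for Csf3r, -0.39 for Mpo, -0.23 for Elane and -0.21 for Il1b. These differences have no error estimate. For most of the 9 genes they and the counts above rest on values under the signal floor outside ΔS6, where the genotypes cannot be ordered.

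**Figure D2:**
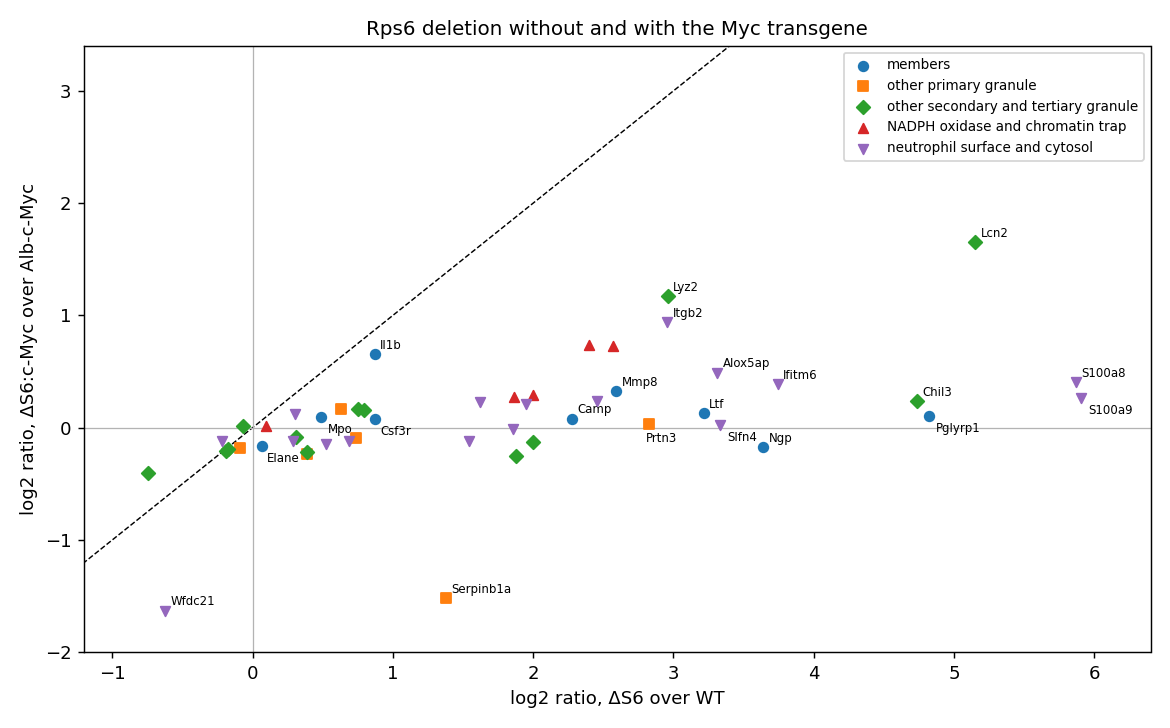
Log2 ratio of ΔS6 over WT (horizontal axis) and, on the vertical axis, of ΔS6:c-Myc over Alb-c-Myc for the 9 measured genes, called members in the legend, and 41 genes of 4 other neutrophil lists; each point is 1 gene from single arrays and the dashed line marks equal ratios. Ngp, Ltf, Pglyrp1, Camp and Mmp8 lie between 2.28 and 4.82 on the horizontal axis and between -0.18 and 0.33 on the vertical axis.

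Other neutrophil genes were listed by function. Of 41 measured genes on 4 such lists, 22 were past 2-fold above WT in ΔS6 and 0 below (median 1.54), with 7 past 8-fold above. With Alb-c-Myc as the reference 24 were above and 0 below. In ΔS6:c-Myc over WT 2 were higher and 2 lower, with a median of 0.05. Among 13 other secondary and tertiary granule genes, 5 were higher in ΔS6 (median 0.75), including the siderophore-binding Lcn2 (5.15), the chitinase-like Chil3 (4.74) and the lysozyme Lyz2 (2.96). The rest of the 5 were Cd177 (1.88) and Olfm4 (2.00), the latter under the floor on every array. Within 2-fold were 8 genes, among them the matrix-degrading enzyme gene Mmp9 (0.79), Fcnb (-0.19) and Ltb4r1 (-0.17). Ceacam1, among the genes with the highest mean level on this list, had -0.74. Several genes of this list are also expressed by other cells, among them Lyz2 (macrophages), Lcn2 (epithelia and hepatocytes), haptoglobin (Hp, 0.38) and arginase (Arg1, -0.07), both of hepatocytes. Chil3 had values of 5.46 in ΔS6:c-Myc, 9.95 in ΔS6, 5.22 in Alb-c-Myc and 5.22 in WT, so that ΔS6 stood alone as it did for Pglyrp1. Lcn2 differed from Chil3 in ΔS6:c-Myc, where it remained 1.72 above WT and 1.65 above Alb-c-Myc, and Lyz2 remained 1.04 and 1.17 above them. The 9 granule genes had no such remainder past 2-fold. Lcn2 and Lyz2 were above the signal floor on every array. Of the 9 granule genes, only Ngp, Csf3r and Il1b were above it in ΔS6:c-Myc, by 0.07, 0.32 and 0.33. For the others, and for Chil3, a remainder under the floor could not be read.

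On the list of NADPH oxidase and chromatin trap genes, 4 of 5 were past 2-fold above WT in ΔS6 (median 2.00). These were the oxidase subunits Cybb (2.57), Cyba (2.40), Ncf4 (2.00) and Ncf1 (1.87), which macrophages also express. Of 17 surface and cytosolic genes, 11 were past 2-fold higher and 0 lower (median 1.86). The 6 within 2-fold included Mcemp1 (0.52), Il1r2 (0.30) and Trem1 (0.29), none of them above the floor outside ΔS6. How much of this count came from macrophages or other cells was not tested. Wfdc21, the gene of this list with the highest mean level, had -0.63 in ΔS6 over WT and -1.65 in ΔS6:c-Myc over WT. The calprotectin genes S100a9 and S100a8 had 5.90 and 5.87 in ΔS6 over WT, followed by Ifitm6 (3.74), Slfn4 (3.33) and Alox5ap (3.31). Alox5ap encodes a protein of leukotriene synthesis. The chemokine receptor Cxcr2, a marker of mature neutrophils, had a ratio of -0.22 from values of 6.26 in ΔS6:c-Myc, 6.33 in ΔS6, 6.38 in Alb-c-Myc and 6.55 in WT, all under the floor.

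Regulators were less uniform. Of 13 measured regulators of granulopoiesis, 4 were past 2-fold above WT in ΔS6 and 1 below (median -0.11). Cebpd had 1.07, Spi1, the gene of PU.1, had 2.00 and Csf2ra had 2.24, while Myb had 1.02 from values under the floor on every array. Cebpa, which hepatocytes also express, had -1.11 and Cebpb -0.13. The cell source of the higher mRNAs, on an array where macrophage genes were high too, was not tested. Of 10 genes listed with neutrophil attractants, 2 were higher (median 0.15). These were C5ar1 (1.47), which encodes a complement receptor and not an attractant, and Cxcl5 (2.16), from a value under the floor in ΔS6 (6.30). No attractant read above the floor was thus past 2-fold higher, and Cxcl1 had 0.18 and Cxcl12 -0.13. Of 10 genes around interleukin 1, 2 were higher and 1 lower (median 0.34), and the accessory receptor chain Il1rap was the lower one (-2.23).

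Markers of other cells moved with the granule genes on the ΔS6 array, and their part in the result was not tested. Of 14 macrophage and Kupffer cell genes, 12 were past 2-fold above WT in ΔS6 and 0 below (median 1.79). All 14 were above the floor on every array, and their summed linear signal was 22276 in ΔS6:c-Myc, 60313 in ΔS6, 13477 in Alb-c-Myc and 15311 in WT. For the 9 granule genes the same sum was 874 in ΔS6:c-Myc, 5799 in ΔS6, 800.5 in Alb-c-Myc and 902 in WT. Above the floor were 3 of the 9 in ΔS6:c-Myc, 2 in Alb-c-Myc and 3 in WT. The sums outside ΔS6 are thus largely background, and their folds cannot be set beside those of the macrophage genes. The Kupffer cell marker Clec4f had a ratio of 0.71 and Marco 5.29. All 8 bile duct cell genes were higher too (median 4.20), with sums of 4055 in ΔS6:c-Myc, 20140 in ΔS6, 2299 in Alb-c-Myc and 2223 in WT. Of these 8, the floor was passed by 5 in ΔS6:c-Myc, 8 in ΔS6, 3 in Alb-c-Myc and 3 in WT. Of 6 monocyte genes 4 were higher (median 1.34), with Plac8 at 2.58 and the monocyte receptor Ccr2 at -0.28, under the floor on every array. Ltf, Lcn2 and Pglyrp1 are also made by some epithelia.

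Of the other blood lineages, single genes stood high in ΔS6. Of 7 erythroid genes, 1 was past 2-fold above WT in ΔS6 and 2 below (median -0.02). The lower ones were the haem synthesis gene Alas2 (-1.15) and the erythroid factor Klf1 (-1.75). Only 4 of the 7 were above the floor on each array, and 5 listed erythroid genes had no value. This median is the ratio of Hba-a1, read at 4.61 to 4.70, under the floor on every array, so it says little about the lineage. Of 5 megakaryocyte and platelet genes 0 were past 2-fold (median -0.09), of 7 eosinophil, basophil and mast cell genes 0 (median -0.25, all under the floor on every array) and of 7 T and NK cell genes 0 (median 0.05). Of 5 B and plasma cell genes 1 was higher (median -0.04), the antibody joining chain gene Jchain at 3.49, with 7.15 in ΔS6:c-Myc, 10.59 in ΔS6, 7.16 in Alb-c-Myc and 7.10 in WT. The immunoglobulin gene Igha, not on the list, had 3.81. Of 8 genes of blood stem and progenitor cells, 1 was higher and 1 lower (median -0.17). These were Cd34 (2.13), which endothelium also expresses, and Hlf (-1.28), which hepatocytes also express.

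**Figure D3:**
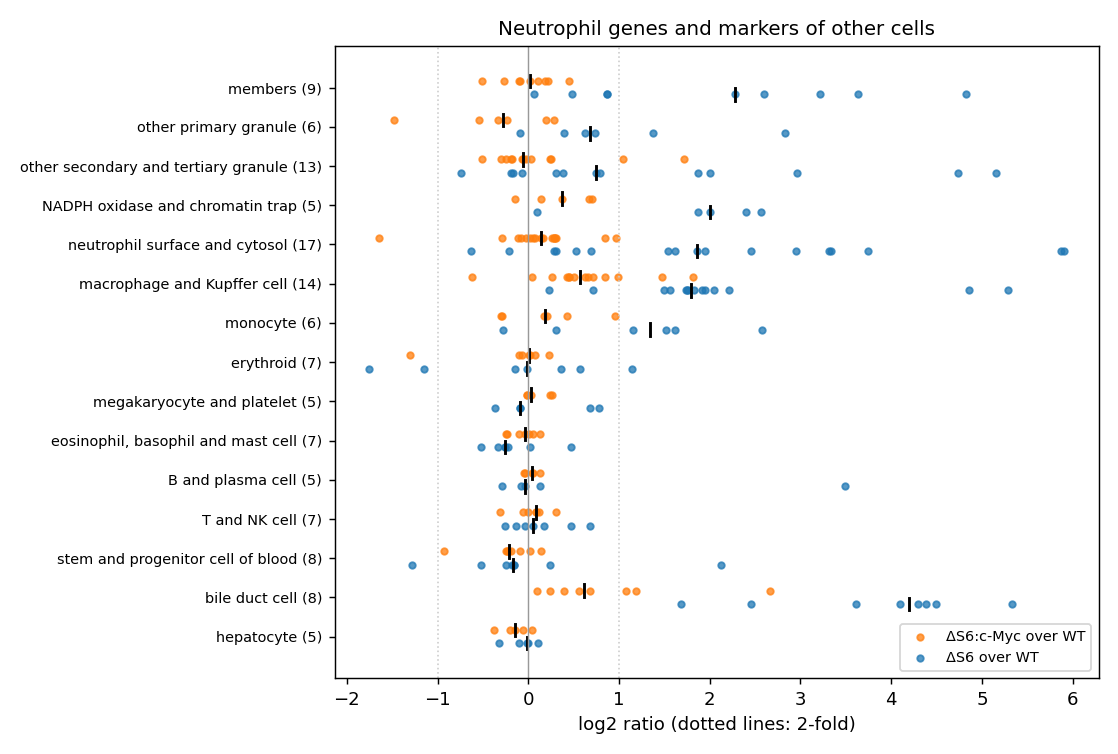
Log2 ratio (horizontal axis) of ΔS6:c-Myc over WT (orange) and ΔS6 over WT (blue) for the 9 measured granule genes, called members, and 14 other lists (vertical axis, number of measured genes in parentheses); each point is 1 gene from single arrays and black bars are medians. The granule genes have medians of 0.02 and 2.28, and the erythroid list 0.01 and -0.02. These erythroid medians are the ratios of Hba-a2 and Hba-a1, both under the signal floor on every array.

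Camp, Ngp and Ltf lie near each other on chromosome 9, a feature that the choice of genes did not use. From the lower end of Camp (109847377) to the upper end of Ltf (111042766), in GRCm38.p6, the interval spans 1.20 Mb, with Ngp 570 kb above Camp and 596 kb below Ltf. The interval held 26 other measured genes, with a median log2 ratio of 0.03 for ΔS6 over WT. Of these, 1 was past 2-fold higher, the cell cycle phosphatase gene Cdc25a (1.29), and 1 was lower, Rtp3 (-1.22). The genes next to Ngp among those measured, Ptpn23 and Klhl18, had ratios of 0.47 and 0.27. Mmp8 lies on the same chromosome more than 100 Mb away, and Pglyrp1, Mpo, Elane, Csf3r and Il1b lie on chromosomes 7, 11, 10, 4 and 2.

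**Figure D4:**
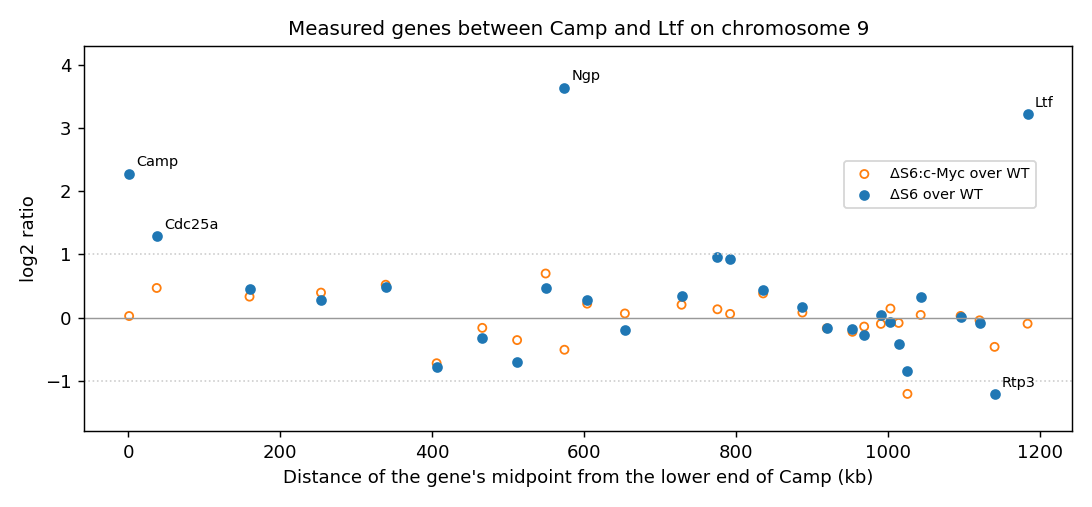
Log2 ratio (vertical axis) of ΔS6 over WT (filled) and ΔS6:c-Myc over WT (open) against the distance of each measured gene's midpoint from the lower end of Camp in kb (horizontal axis); each point is 1 gene from single arrays and dotted lines mark 2-fold. Camp, Ngp and Ltf stand at 2.28, 3.64 and 3.21 in ΔS6 over WT, and the other 26 genes range from -1.22 to 1.29 in that comparison.

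Genes with ratios most like those of Ngp and Ltf were found by the Euclidean distance of the 3 log2 ratios over WT, among 9869 genes with a level of at least 8 on some array. Nearest to Ngp were Peg3 (0.46), Mmp7 (0.52), Kcne3 (0.53), Procr (0.62), the immunoglobulin gene Igha (0.62) and Serpinb6b (0.66). Nearest to Ltf were Mmp7 (0.23), Peg3 (0.24), Tff2 (0.35), Kcne3 (0.36), Degs2 (0.37) and Ankrd1 (0.41). Ngp and Ltf lay 0.60 apart. The distance from Ltf was 0.90 for Mmp8, 0.96 for Camp and 1.67 for Pglyrp1, and the other 4 granule genes lay between 2.37 and 3.16. With 4 arrays, many genes of unlike tissues share such a pattern.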

How the data were processed

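Liver RNA of 4 genotypes, pooled from 3 mice each, was measured on 1 Affymetrix array per genotype. The authors deposited log2 values for 45101 probe sets (64 of them controls), made by RMA with quantile normalization. RMA and affy stand in the processing notes of the submitters, and their versions were not given in the sources used here. Detection calls were not used here, so the signal floor (95th percentile of 78 receptor probe sets) is a yardstick only, since probe sets differ in background. The number of arrays limits the precision.

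Probe sets with 1 symbol in the platform annotation (34958) gave 18194 genes, and a gene took the probe set of highest mean. Symbols were checked against RefSeq of GRCm38.p6, and 0 changed. Log2 ratios were computed between arrays, and 2-fold and 8-fold were used for counts. The granule genes and all lists were chosen with earlier results of these data known, and a list's direction is no independent support. Named genes are the granule genes, up to 4 genes per list with the highest mean level, those past 8-fold in ΔS6 over WT, and the 6 nearest to Ngp and to Ltf. Ctsg, Serpinb1a, Csf3, Csf2ra, Myb, Spi1, Cxcr2, Cxcl5, Clec4f, Ccr2, Cd34, Hba-a1 and Hba-a2 were named after their values were seen. So were Mmp9, Fcnb, Ltb4r1, Olfm4, Cd177, Mcemp1, Il1r2, Trem1 and the genes of the chromosome 9 interval and of the Mmp cluster. No protein sequences were used, so the planned comparison of the Ngp and Camp proteins was not made. The calculation was tested on simulated data. Alternatives were median-centring, renewed quantile normalization, cyclic loess, filters on dim genes, other probe set choices, 1.5-fold and 4-fold thresholds and Alb-c-Myc as the reference. Python 3.11.15, numpy 2.4.6, pandas 2.3.3, statsmodels 0.14.6 and matplotlib 3.10.9 were used.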

Additional observations from a re-analysis of the deposited data

Results flagged for a closer look

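Ngp and Elane had ratios of opposite sign for the loss of Rps6 with and without the c-Myc transgene. For Ngp the log2 ratio was -0.18 with the transgene (ΔS6:c-Myc over Alb-c-Myc) and 3.64 without it (ΔS6 over WT), a difference of -3.81. For Elane the ratios were -0.17 and 0.06, a difference of -0.23, and all 4 values lay under the signal floor. In both genes the ratio with the transgene is smaller than the spread between probe sets of 1 gene (0.24), and the difference was not tested.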

How the results depend on the processing

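Counts and medians of the 9 genes in the 5 comparisons were recomputed under other scalings, filters, probe set choices and thresholds. Alb-c-Myc served as a second reference for ΔS6 over WT alone. Of 82 values, 80 stayed near the reported ones, but part of these could not move. Each of the 9 genes has 1 probe set, so the probe set choices returned the reported values. The filter on genes whose highest level was under 6 removed none, since every value in ΔS6 was at least 6.54. The number past 2-fold in ΔS6 over WT was 5, or 6 with Alb-c-Myc as the reference, and the median was 2.21 to 2.44. The number past 2-fold in ΔS6:c-Myc over ΔS6 was 5, with a median of -2.20 to -2.04. In both comparisons 5 genes were past 4-fold and 7 past 1.5-fold. At a 1.5-fold threshold, 1 gene, Il1b, was past the threshold when ΔS6:c-Myc was set against Alb-c-Myc. The shares of all genes past 4-fold and 1.5-fold were not computed, so the counts at these thresholds have no background beside them. Without genes at or under the signal floor on both arrays, the median of Alb-c-Myc over WT was -0.33, over 3 genes instead of 9. No median changed sign, and a count has no sign to change. The reported medians were 0.02 for ΔS6:c-Myc over WT, 0.10 for ΔS6:c-Myc over Alb-c-Myc and -0.10 for Alb-c-Myc over WT. Each was smaller in size than the spread between probe sets (0.29, 0.24 and 0.14), so an unchanged sign shows little there. Under the 3 scalings the ratio of a single gene moved by at most 0.11. Set against Alb-c-Myc instead of WT, the ratio of ΔS6 was 3.97 for Ngp and 1.34 for Il1b. No paired analysis was possible because each genotype has 1 array of pooled RNA. Where a value lies near the signal floor, as for most granule genes outside ΔS6, the array cannot order the genotypes.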

Other observations

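Mmp8 lies in a cluster of 10 Mmp genes on chromosome 9 (7272514 to 7699585 in GRCm38.p6), of which 9 were measured. In ΔS6 over WT 2 of the 9 were at least 2-fold higher, Mmp8 (2.59) and Mmp7 (3.34), which encodes matrilysin, an enzyme of epithelial cells. Mmp7 was read at 7.24 in ΔS6:c-Myc, 10.76 in ΔS6, 7.37 in Alb-c-Myc and 7.42 in WT. A different pair was higher in ΔS6:c-Myc over WT, the collagenase Mmp13 (1.48) and the macrophage elastase Mmp12 (1.23), with ratios of 1.43 and 1.15 over Alb-c-Myc. Their values in ΔS6:c-Myc, 5.66 and 6.73, lie under the signal floor of that array. Pglyrp2, a peptidoglycan amidase made by hepatocytes and a relative of Pglyrp1, had values of 11.21 in ΔS6:c-Myc, 12.16 in ΔS6, 12.08 in Alb-c-Myc and 12.18 in WT.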
